A study of Mus musculus with 9 samples.

Results

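Vaultrc5 and Bc1 are short noncoding RNAs made by RNA polymerase III. They were found by name in a table of transcript levels from pancreatic islets of female mice, and they make up 2 of its 10706 loci (a locus being all lines that share a gene name). Each has 1 line in the table. The study compared islets of virgin mice (5 libraries) with islets of pregnant mice at GD14.5 (GD for gestational day; 4 libraries), and the labels name no strain, age, allele or treatment. RNA was enriched on oligo(dT) beads, which bind stretches of A, and it is not stated how many animals gave each library, so p-values reflect differences between libraries, which may be technical. Values are FPKM, the fragments assigned to a transcript per kilobase of its length, scaled to the fragments of its library.

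RNA polymerase III transcribes short RNAs such as transfer RNAs, 5S ribosomal RNA and 7SL RNA, the scaffold of the signal recognition particle. Many of its genes carry their promoter inside the transcribed sequence, as an A box followed by a B box. Vaultrc5 is the mouse vault RNA, a small component of vaults, the large ribonucleoprotein particles of the cytoplasm. Bc1 descends from a transfer RNA gene, has an A-rich middle section, and is known as a repressor of translation in the dendrites of neurons. Related copies of its 5′ part, the ID repeats, are spread through rodent genomes.

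The Bc1 sequence is shown because it holds both the internal promoter and the A-rich stretch that oligo(dT) could bind. The GENCODE M21 transcript (GRCm38, chr7:144914470-144914637, plus strand) is 168 bases long, against 154 bases for the RefSeq gene, which starts at the same base. Capitals mark matches to an A box core, TNGCNNAG, and to a B box core, GGTTCG.
Bc1: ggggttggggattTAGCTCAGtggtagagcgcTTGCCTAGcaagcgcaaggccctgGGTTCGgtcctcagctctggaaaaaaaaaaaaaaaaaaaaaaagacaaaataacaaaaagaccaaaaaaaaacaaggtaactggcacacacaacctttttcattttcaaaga
The A box core was found at bases 14 to 21 and again at bases 33 to 40, and the B box core at bases 57 to 62, all on the transcribed strand. Searched on both strands, the A box core occurs in 28.5% and the B box core in 3.11% of the first 168 bases of GENCODE transcripts at least that long. A run of 23 A follows at bases 77 to 99. Only 0.437% of the 141767 GENCODE transcripts hold a run of A at least that long. Whether it affected the recovery of Bc1 was not tested.

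Bc1 shares its first 108 of 168 bases with other genes, in stretches of at least 25 identical bases. Stretches of that length link it to 348 other gene names in GENCODE, 176 on the same strand and 174 on the other, and 31 of them are among the 2377 loci tested here. At 50 bases 5 names share a stretch within the first 86 bases, and 0 of them are among the tested loci. Neither the read length nor the counting of reads with several matches is stated in the sources used here, so the level at Bc1 is uncertain, and how far such reads entered it was not tested.

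Vaultrc5 has the same promoter elements and no such stretch of A. Its GENCODE transcript covers 143 bases (chromosome 18, 36801866 to 36802008, GRCm38) and lies within a RefSeq gene of 345 bases (36801763 to 36802107). The A box core stands at bases 11 to 18 and the B box core at bases 65 to 70 and 110 to 115, while the longest run of A is 2 bases. Among the first 143 bases of GENCODE transcripts, 24.7% hold the A box core and 2.69% the B box core. Vaultrc5 shared no 25 bases with another GENCODE gene; a copy on another chromosome, Gm25403, matched it at 91.5% over 142 aligned bases. RefSeq's length is 2.41 times that of GENCODE. Which length the FPKM of Vaultrc5 was computed with is not given, so its level depends on an unknown length. RefSeq lists both RNAs as long noncoding, although neither exceeds 345 bases.

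The summed FPKM of the loci in this table differed widely between libraries. Most of the marker genes mentioned below have no line here, so the sum is not a total over all RNAs of a library. A share of the sum is a share of these loci only. The summed FPKM ran from 5415.33 to 20530.61 in virgin libraries and from 6488.14 to 14636.26 at GD14.5, and the sequencing depth is unknown. Along the leading principal component (72.2% of variance), the libraries of largest sum (virgin 4, virgin 5 and GD14.5 replicate 4) scored 23.3 to 45.2 and the other 6 scored −33.0 to −0.896. Of 27 markers of islet, acinar, ductal, endothelial, immune and neural cells, only Sox9 had a line, at 0.01 FPKM at most, so the tissue label could not be checked.

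Vaultrc5 was found in all 9 libraries at levels that differed 18.1 times. In virgin islets its FPKM was 12.07, 58.99, 68.98, 4.96 and 4.14 in replicates 1 to 5. At GD14.5 its FPKM was 20.52, 72.15, 74.96 and 8.46 in replicates 1 to 4. The groups overlapped across most of their range. In both groups replicates 2 and 3 were high, replicate 1 was lower and replicate 4 was lower still, with virgin replicate 5 lowest. Among the 2377 loci Vaultrc5 held rank 5 by FPKM in virgin replicate 3 and rank 742 in virgin replicate 5.

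Bc1 was lower and less regular. In virgin islets its FPKM was 4.84, 7.2, 0, 9.85 and 0 in replicates 1 to 5. At GD14.5 its FPKM was 22.13, 5.89, 2.5 and 11.24 in replicates 1 to 4. Both zeros are in virgin libraries, and 2 of the 4 GD14.5 libraries exceeded every virgin library, while the others lay within the virgin range. A value of 0 here is a listed value at unknown depth and does not show that Bc1 was absent.

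**Figure D1:**
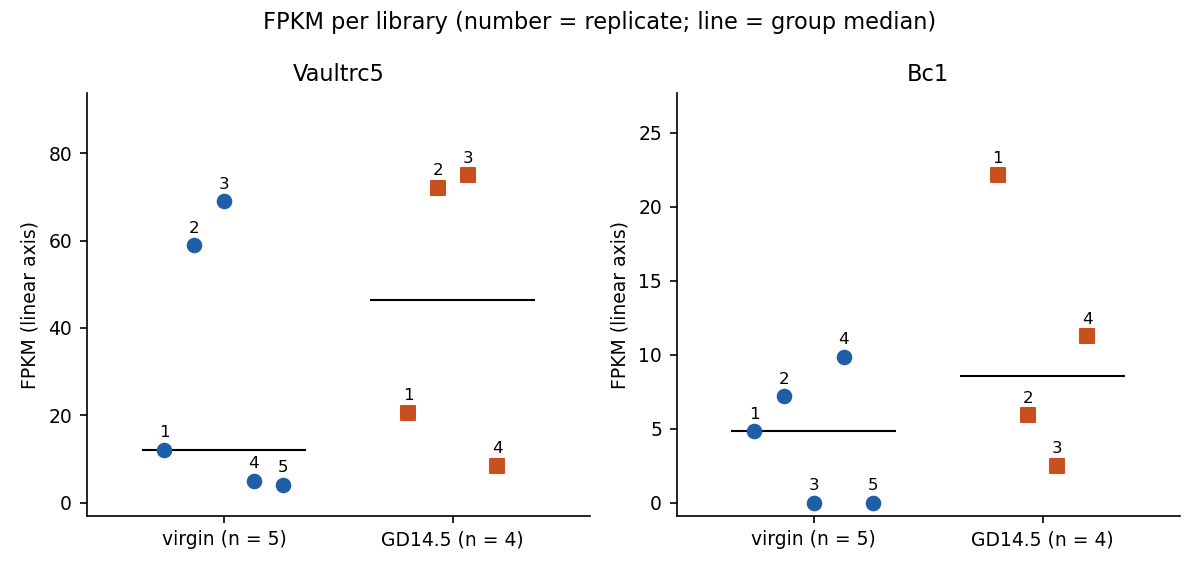
FPKM of Vaultrc5 (left) and Bc1 (right) on linear axes, 1 point per library with its replicate number, and the group median as a line. Vaultrc5 reached 58.99 to 74.96 in replicates 2 and 3 of both groups and stayed at or below 20.52 in the rest; Bc1 was listed at 0 in virgin replicates 3 and 5 and was highest in GD14.5 replicate 1, at 22.13.

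The first comparison asked whether the RNAs differ between gestation and the virgin state. Vaultrc5 averaged 29.8 ± 31.5 FPKM (SD, n = 5) in virgin islets, against 44.0 ± 34.5 FPKM (SD, n = 4) at GD14.5. The log2 fold change on the log2(FPKM + 0.5) scale was 0.93 ± 0.81 (SE; 95% interval −0.75 to 2.61; limma adjusted p = 0.817), within the spread of the libraries. For Bc1 it was 1.73 ± 0.80 (SE; 95% interval 0.08 to 3.38; limma adjusted p = 0.817, unadjusted p = 0.0401), and the interval is not adjusted for the number of loci. In this fit 60 of 2377 loci had an unadjusted limma p under 0.05. Of all loci tested, 0.168% were called at a limma adjusted p under 0.05, and neither Vaultrc5 nor Bc1 was among them. Both differences lay above the median of all loci, which was −0.30. In bulk islets, a change in the number of cells that hold an RNA and a change in its level per cell cannot be told apart.

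The size of the Bc1 difference rests on how the zeros are treated. It was 2.62 on the log2 scale with a pseudocount of 0.1 and 1.38 with a pseudocount of 1, where Vaultrc5 gave 0.96 and 0.89. The groups did not overlap at 0.589% of loci, and both RNAs had overlapping groups.

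Across all loci the deviations of same-numbered libraries from their group means correlated positively for each of the 4 numbers, at 0.20 to 0.59. Some pairs of unlike number reached similar values, up to 0.49 for virgin replicate 5 with GD14.5 replicate 4, which both have large sums. Virgin replicate 2 correlated more with GD14.5 replicate 1 (0.23) than with GD14.5 replicate 2 (0.20). Each RNA was also compared within numbers. Vaultrc5 was higher at GD14.5 in 4 of 4 same-numbered pairs, by 1.70 times for number 1, 1.22 times for number 2, 1.09 times for number 3 and 1.71 times for number 4. With the replicate number as a block its log2 fold change was 0.47 ± 0.25 (SE; limma adjusted p = 0.634, unadjusted p = 0.0830), so the call did not change. The numbers lay further apart than the libraries of any pair, with Vaultrc5 at 4.96 to 68.98 FPKM over virgin replicates 1 to 4. After removal of the group means the number accounted for 99.1% of the variance of Vaultrc5 over the 8 numbered libraries. The median over all loci was 87.7%. This share leaves out any difference between the groups. Only 51 of 2377 loci had as high a share, counting Vaultrc5. Number and summed FPKM are not separate here. Both libraries of number 1 have the smallest sums, and both of number 4 are among the 3 of largest sum.

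Bc1 was higher at GD14.5 in 3 of 4 pairs. The ratio was 4.57 for number 1, 0.818 for number 2 and 1.14 for number 4, and for number 3 Bc1 went from a listed 0 to 2.5 FPKM. The blocked log2 fold change was 1.15 ± 0.40 (SE; limma adjusted p = 0.361; unadjusted p = 0.0145). In this fit 1.09% of loci were called, again without Vaultrc5 or Bc1, and 221 of 2377 loci had an unadjusted limma p under 0.05. The blocked call of Bc1 changed with single libraries: limma's adjusted p was 0.00839 without virgin replicate 4, 0.0115 without GD14.5 replicate 4 and 0.0490 without virgin replicate 2, with log2 fold changes of 1.47, 1.47 and 1.62. Removing either library of pair 4 takes that pair out of the comparison, so the first 2 of these fits repeat one another. Of all loci, those fits called 1.95%, 1.64% and 1.09%. Without GD14.5 replicate 2, which leaves the same pairs as without virgin replicate 2, the adjusted p was 0.0957 in limma. The number accounted for 82.3% of the variance of Bc1, which is below the median locus.

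Both RNAs were among the most variable loci of the table within groups. The within-group SD of log2(FPKM + 0.5) was 1.71 for Vaultrc5 and 1.83 for Bc1, against a median of 0.59 over all loci. Only 16 loci had a larger SD than Vaultrc5 and 12 a larger SD than Bc1. The SD of Bc1 depends on the pseudocount. Its 2 virgin libraries listed at 0 stand at −1 on this scale, against 2.42 to 3.37 in the other virgin libraries. The added 0.5 also narrows the spread of low loci.

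**Figure D2:**
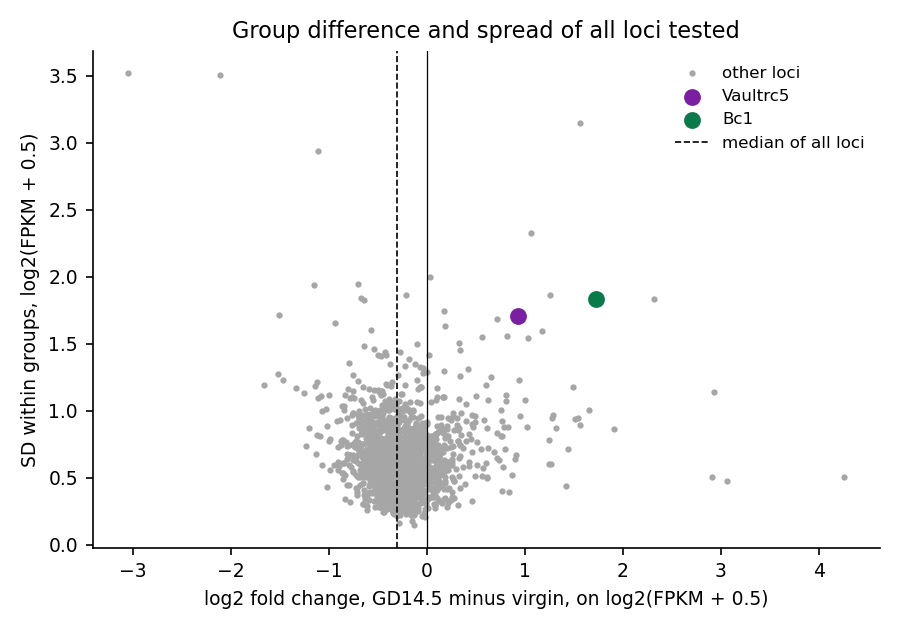
Log2 fold change (GD14.5 minus virgin, horizontal) against the SD within groups (vertical) for 2377 loci, both on log2(FPKM + 0.5); the dashed line is the median fold change of −0.30. Vaultrc5 and Bc1 lie to the right of that line, at 0.93 and 1.73, and near the upper edge of the spread, at 1.71 and 1.83.

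The second comparison set each RNA beside the summed FPKM of its library. Vaultrc5 was lowest where the sum was largest. Its FPKM was 4.14 to 8.46 in the libraries of largest sum (virgin 4, virgin 5 and GD14.5 replicate 4) and 12.07 to 74.96 in the other 6. Only 0.337% of loci, 8 in all, were lower in each of those 3 libraries than in every other, whereas 62.1% were higher in each of them. Vaultrc5 was the most abundant of the 8, and the other seven were B3galt1, Brk1, D130037M23Rik, Gm46969, Heg1, Klhl7 and Lockd. As a share of the summed FPKM, Vaultrc5 made up 0.0202% to 0.0578% in the libraries of largest sum and 0.223% to 0.999% in the others.

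Within the other 6 libraries the order was different. There Vaultrc5 was lowest in both replicates 1, which had the smallest sums, and its log2 level followed the log2 sum with Pearson's r = 0.74 (exact permutation p = 0.1, adjusted 0.400) and Spearman's rho = 0.60 (exact permutation p = 0.242, adjusted 0.483; n = 6). Without virgin replicates 1 and 2, the libraries farthest from the median sum, r was 0.75 over 4 libraries. No r with the sum over all 9 is given, because the 3 libraries of largest sum were treated as a separate set. Whether they form one was not tested. Vaultrc5 was thus lower in the 2 libraries of smallest sum and the 3 of largest sum than in the 4 between. No test was made of this order.

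Bc1 did not order with the sum. It was listed at 0 in the library of largest sum, virgin replicate 5, and at 9.85 and 11.24 FPKM in the next largest, and its range in the other 6 was 0 to 22.13. Within those 6 Pearson's r was 0.05 (exact permutation p = 0.922, adjusted 0.922) and Spearman's rho 0.14 (exact permutation p = 0.803, adjusted 0.922; n = 6), and r was −0.11 without virgin replicates 1 and 2. The adjusted values cover the 4 relations computed. Its share of the sum was 0% to 0.0768% in the libraries of largest sum and 0% to 0.341% in the others.

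**Figure D3:**
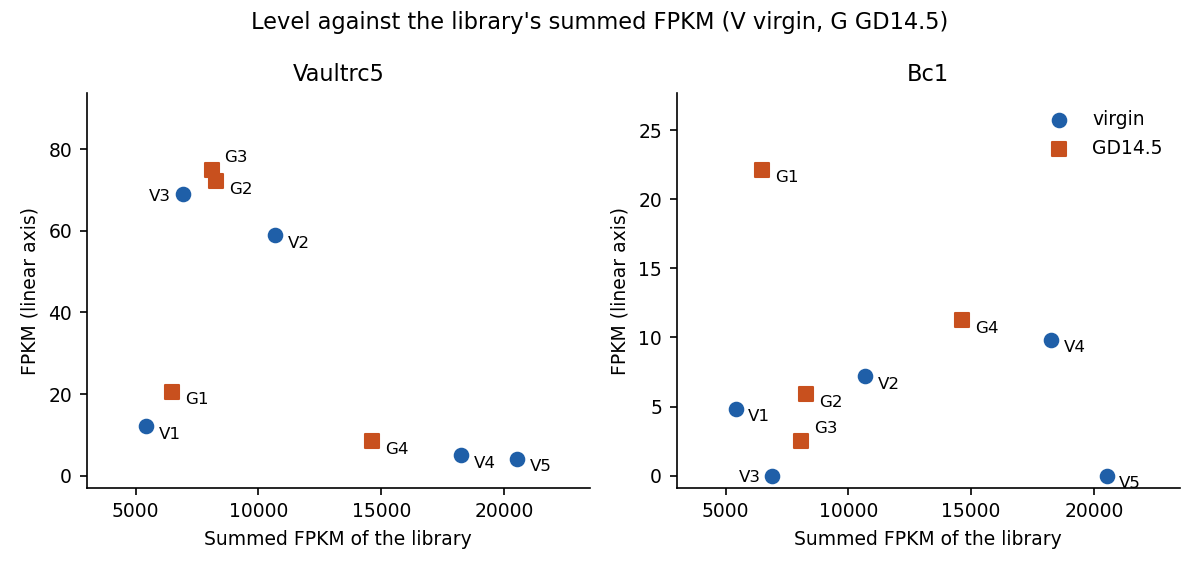
FPKM of Vaultrc5 (left) and Bc1 (right) against the summed FPKM of each library, on linear axes (V virgin, G GD14.5, with replicate number). Vaultrc5 was 58.99 to 74.96 in 4 libraries with intermediate sums and at most 20.52 at either end; Bc1 showed no order along the sum.

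The groups also overlapped in the share of the sum. With 0.5 added to the FPKM of each RNA, the mean log2 share of Vaultrc5 was 1.21 higher at GD14.5 (two-sided exact permutation p = 0.413) and that of Bc1 2.01 higher (two-sided exact permutation p = 0.230), where 0.00794 is the smallest p that 5 against 4 libraries allow. The size for Bc1 depends on the added value, since 2 virgin libraries are listed at 0; it was 2.90 with 0.1 added and 1.66 with 1 added. Within same-numbered pairs the share of Bc1 was higher at GD14.5 in 4 of 4, from 0.0894% to 0.341%, from 0.0674% to 0.0711%, from a listed 0 to 0.0309% and from 0.0540% to 0.0768%. For number 2 its FPKM was lower at GD14.5 (5.89 against 7.2), as was the sum (8287.68 against 10688.96). The share of Vaultrc5 was higher in 3 of 4, the exception being number 3, at 0.999% and 0.927%. The mean paired difference was 1.20 on the log2 scale for Bc1 (two-sided exact sign-flip permutation p = 0.125) and 0.52 for Vaultrc5 (p = 0.250 in the same exact permutation test), where 0.125 is the smallest p that 4 pairs allow. In GD14.5 replicate 1 Bc1 made up 0.341% of the sum, against 0.0309% to 0.0768% in the other GD14.5 libraries.

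Between the RNAs, r on the log2(FPKM + 0.5) scale was −0.07 over the 9 libraries, and 0.11 with libraries scaled to equal sums. Neither value was tested, and Bc1 is listed at 0 in 2 of the libraries. Virgin replicate 3 had Vaultrc5 at 68.98 FPKM and Bc1 listed at 0. In GD14.5 replicate 1, where Bc1 peaked at 22.13, Vaultrc5 was at 20.52.

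The loci most like each RNA were ranked by Pearson's r of log2(FPKM + 0.5) over the same 9 libraries, as a description; the points share their libraries and their scaling. On the values as deposited, r with Vaultrc5 was above 0 at 81 of 2376 loci and its median was −0.62. With libraries scaled to equal sums it was above 0 at 981 loci, with a median of −0.14. The closest on the values as deposited was Gm24105, with r = 0.94. Its FPKM was 35.39, 54.22, 71.68, 22.95 and 25.68 in virgin replicates 1 to 5 and 48.53, 69.71, 71.51 and 44.09 at GD14.5, so it too was highest in replicates 2 and 3. Nearly all of it came from 1 of its 3 lines, at 21.9 to 71.38 FPKM. On equal sums Gm24105 was again first, at r = 0.95.

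By sequence, Gm24105 resembles another polymerase III RNA. Under this name GENCODE holds a transcript of 293 bases, and 275 of its 300 aligned positions (91.7%) were identical to Rn7s1, a 7SL RNA gene of 300 bases. The table does not tie its lines to transcripts, so whether the abundant line is this RNA is not known. Rn7s1 and Rn7s2 have no line here, and whether their reads entered the level at Gm24105 was not tested. Gm24105 did not differ between groups beyond the spread of the libraries (log2 fold change 0.57 ± 0.56, SE; limma adjusted p = 0.817).

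The next loci by likeness to Vaultrc5 were 5730408K05Rik (r = 0.90), Brk1, which encodes a small subunit of the actin-regulating WAVE complex (r = 0.89) and Gm46969 (r = 0.87). Their levels were low. 5730408K05Rik ran from 1.54 to 2.98 FPKM, while Brk1 was listed at 0 in virgin 4, virgin 5 and GD14.5 replicate 4. On equal sums the 4 loci after Gm24105 were Snhg3 (r = 0.94), Brk1 (r = 0.92), Gigyf1 (r = 0.92) and Snhg4 (r = 0.92). Snhg3 and Snhg4 are host genes of small nucleolar RNAs, and Snhg3 ran from 37.27 to 89.92 FPKM.

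For Bc1 the most similar loci were Gm5547 (r = 0.88), Gm32039 (r = 0.85), Gm34455 (r = 0.84), Lcp1, which encodes the actin-bundling protein L-plastin of blood cells (r = 0.84), and Gm26802 (r = 0.82). All 5 were at their lowest in virgin replicates 3 and 5, where Bc1 was listed at 0. Gm5547 stood at 0.06 and 0.18 FPKM there and at 2.06 in GD14.5 replicate 1. On equal sums none of these loci was among the first 5, and Gm31546 (r = 0.93), Snhg12 (r = 0.92), Gm5129 (r = 0.91), Gm12506 (r = 0.91) and Gm51903 (r = 0.88) led, so the likeness of Bc1 depends on the scaling.

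**Figure D4:**
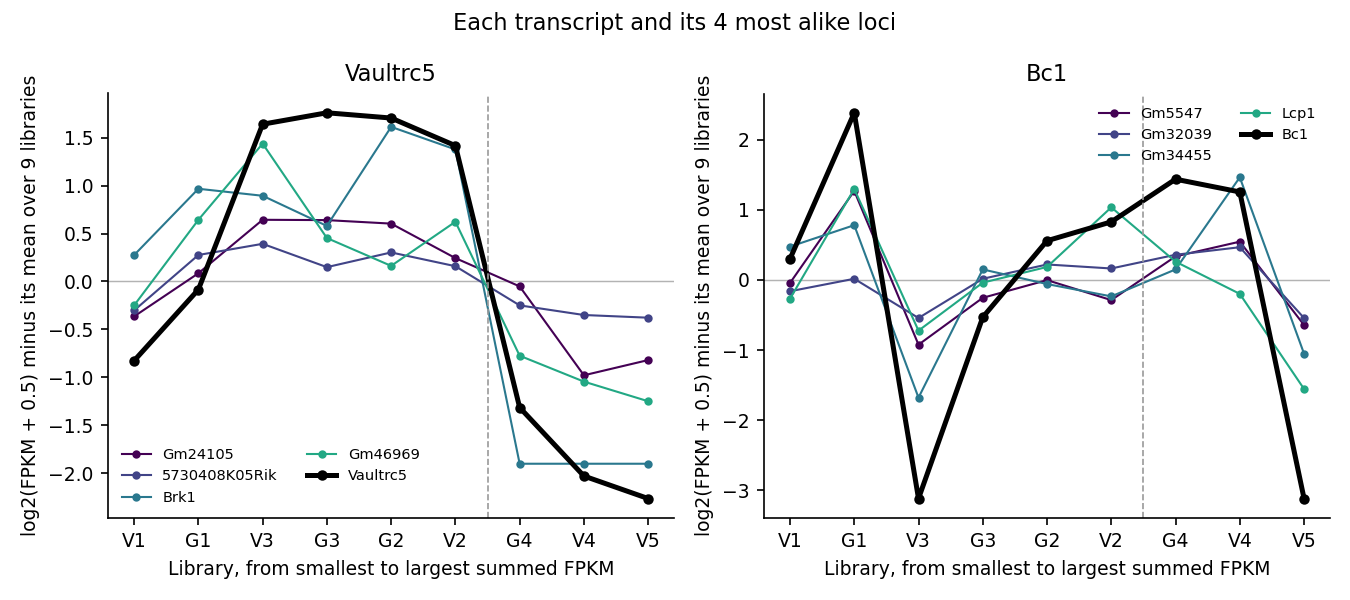
Log2(FPKM + 0.5) minus its mean over the 9 libraries for Vaultrc5 (left) and Bc1 (right), in black, and for the 4 loci most like each, in colour; libraries run from the smallest to the largest summed FPKM, and the dashed line sets off the 3 largest. Vaultrc5, Brk1 and Gm46969 lie lower in each of the 3 largest libraries than in any other, and Bc1 and its 4 loci dip in virgin replicates 3 and 5.

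Other genes of the pathway give few values in this table. Of 17 named polymerase III RNAs, among them 7SK, 7SL and the RNA parts of RNase P and RNase MRP, Vaultrc5 and Bc1 were the only ones with a line. Of 28 genes for polymerase III, its factors and its regulators only Polr3e, which encodes a polymerase III subunit, had one, at 0.03 to 0.33 FPKM and below the level for testing. Nsun2, a methyltransferase known to modify vault RNA, was the only one of 5 vault genes with a line and ran from 1.75 FPKM in virgin replicate 3 to 10.24 in virgin replicate 5. Its r with Vaultrc5 was −0.82 on the values as deposited, where the median locus had −0.62, and −0.44 on equal sums, where the median locus had −0.14. It did not differ between groups beyond the spread (log2 fold change −0.30 ± 0.50, SE; limma adjusted p = 0.821). Of 10 genes for Bc1-binding proteins only Pura, a single-strand nucleic acid binding protein, was present, at 0 to 5.07 FPKM; its log2 fold change was −0.05 ± 0.54 (SE; adjusted p = 0.960 in limma). Which transcript a line stands for at a coding gene is unknown.

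The few neighbouring genes with a line had low levels. Zmat2, 2.10 kb from Vaultrc5, ran from 0 to 1.62 FPKM and was listed at 0 in GD14.5 replicate 2, where Vaultrc5 was at 72.15. Near Bc1, Gm39119 at 3.93 kb reached at most 0.05 FPKM and Gm26793 at 14.8 kb was listed at 0 throughout. LTO1, the gene nearest to Bc1 at 0.477 kb, had no line. Of the genes within 100 kb, 2 of 10 around Vaultrc5 and 2 of 7 around Bc1 had a line. Signal at the others is unknown.

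Few loci of the table have a RefSeq gene about as short as that of Bc1 (154 bases). Only 2 loci of the table have one of at most 300 bases, Bc1 and Gm42270 (225 bases). Vaultrc5, at 345 bases in RefSeq, lies above that limit. Gm24105, whose GENCODE transcript has 293 bases, is not among these loci either. Gm42270 was listed at 0 except in virgin replicate 4, at 11.74 FPKM, and GD14.5 replicate 4, at 6.63. These have the next largest sums after virgin replicate 5.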

How the data were processed

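The authors deposited FPKM for 9 islet libraries, 1 line per transcript, rounded to 2 decimals; per the submitters' processing notes, the genome was GRCm38.p6. Aligner, quantifier and strandedness: not given in the sources used here. Of 26375 lines, 480 with a suffix marking a copy were left out; lines with 1 name were summed. Loci with a mean FPKM of at least 0.5 (2377) were fitted by limma 3.58.1 (R 4.3.3) on log2(FPKM + 0.5) values (variance trend, two-sided, Benjamini-Hochberg over all loci, threshold 0.05). The fit was tested only on simulated data with independent noise at each locus, which does not cover sums that differ between libraries. The scale understates changes of low loci. Depth is unknown. Alternatives were other pseudocounts, filters, scalings, a replicate block and leaving libraries out. Deviations of same-numbered libraries from their group means correlated at 0.49, 0.20, 0.28 and 0.59 for numbers 1 to 4, all above 0.1, and those of other pairs at −0.55 to 0.49; the labels state no pairing, and virgin replicate 5 has no partner in the blocked fit. Sequences and lengths are from GENCODE M21 and RefSeq, aligned with BLAST 2.17.0. The loci most alike, gene lists, short loci and neighbours followed fixed rules (the 5 highest r, every list gene with a line, at most 300 bases, within 100 kb); the loci lower in the libraries of largest sum were named after their values were seen. For Vaultrc5, 1 of the 5 loci most alike is not reported here. Members and lists were chosen with earlier results of these data known.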

Additional observations from a re-analysis of the deposited data

Results flagged for a closer look

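Of 8 sets of values (each RNA in each group, as log2 level and as share of the sum), 1 held a library far from the rest by Dixon's criterion, which chance meets in about 1 of 20 sets. It was the share of Bc1 in GD14.5 replicate 1, at 0.341% of the summed FPKM against 0.0309% to 0.0768% in the other 3 libraries.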

How the results depend on the processing

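The direction of all 4 member results, level and share of Vaultrc5 and Bc1, was higher at GD14.5 under every alternative run. Vaultrc5 passed no threshold in 31 alternatives for its level (log2 fold change 0.37 to 1.54, limma adjusted p = 0.208 to 1) and 15 for its share (0.52 to 2.06). Leaving out 1 library gave 0.47 (without virgin replicate 5) to 1.54 (without GD14.5 replicate 4) for Vaultrc5 and 1.15 (without virgin replicate 3 or 5) to 2.24 (without virgin replicate 4) for Bc1. With the replicate block and 1 library left out, fits added after the data were seen, Vaultrc5 gave 0.37 to 0.58 and Bc1 0.67 to 1.62, and Bc1 passed in 3 of 9 (1.47 without either library of number 4, 1.62 without virgin replicate 2). With the replicate block on all libraries neither call changed. The share of Bc1 gave 1.20 to 2.53 with 1 library left out and 1.66 to 2.90 with other pseudocounts. The replicate block, as a test of same-numbered pairs, gave shares 0.52 higher for Vaultrc5 and 1.20 for Bc1, in a design of 4 pairs too small to pass the threshold; these pseudocounts and this block were chosen after seeing the data. With equal sums Vaultrc5 was at 1.17 and Bc1 at 1.95, with the median of all loci at −0.09.

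The count of called loci, 4, moved to 29 with equal medians, 31 with equal sums, 29 after quantile normalization, 26 with the replicate block, 27 with the block on equal sums, 25 with the block on equal medians (added) and 21 without the 3 libraries of largest sum. It was 3 to 7 with 1 library left out; the cause was not tested. Unknown depth leaves the precision of low values, such as those of Bc1, unknown.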

Other observations

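Trp53inp1, which encodes a p53-induced protein of autophagy, ran most nearly opposite to Vaultrc5 of all loci tested (r = −0.98 over the 9 libraries, noticed after the values were seen). The transcript under its name was at 2.45, 1.51, 1.14, 6.88 and 6.85 FPKM in virgin replicates 1 to 5 and at 2.66, 0.9, 0.86 and 4.27 at GD14.5. It orders replicates 2 and 3, then 1, then 4 within each group, the reverse of Vaultrc5. Like 62.1% of loci, it was highest in the 3 libraries of largest sum. It did not differ between groups beyond the spread (log2 fold change −0.60 ± 0.52, SE; limma adjusted p = 0.817).

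With libraries scaled to equal sums, the locus most opposite to Vaultrc5 was Norad, a long cytoplasmic noncoding RNA that binds Pumilio proteins (r = −0.95). On the values as deposited, its FPKM was 27.43 to 161.79 in virgin libraries and 32.1 to 114.18 at GD14.5. Like 62.1% of loci, it was highest in the 3 libraries where Vaultrc5 was lowest.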
